A study of Rattus norvegicus with 48 samples.

Results

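Rat primary cortical cultures that had received the HIV-1 protein Tat were compared with and without cocaine, and the cocaine effect was averaged over 4 backgrounds. Each background had its own cocaine-free partner: Tat-Cocaine was set against Tat, Tat-Cocaine-Amlexanox against Tat-Amlexanox, Tat-Cocaine-Tazemetostat against Tat-Tazemetostat, and Tat-Cocaine-4OI against Tat-4OI. These 8 groups of 3 RNA-seq libraries were 24 of the 48 libraries of the series, 12 with cocaine and 12 without, and the pair with the compound senicapoc was left out of the average by rule. The cultures were made from cortex of Sprague-Dawley rat fetuses at day 18 and had been kept for 21 days. All 24 received recombinant Tat 1–86 at 6 ng/mL for 48 h, and the 12 cocaine libraries also 25 µM cocaine for 24 h. Amlexanox was given at 25 µM, Tazemetostat at 3 µM and 4OI (4-octyl itaconate) at 250 µM. No library without Tat entered the average, so that a change described here is a change beside Tat.

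Cocaine blocks the reuptake transporters for dopamine, noradrenaline and serotonin, blocks voltage-gated sodium channels at higher concentrations, and is broken down by esterases. Tat is the transactivator of HIV-1 and is released from infected cells. Neurons answer electrical activity with a first wave of immediate-early genes, many of which encode transcription factors, and with a later wave of genes for neuropeptides, growth factors and signalling proteins. Of the compounds, amlexanox inhibits the kinases TBK1 and IKKε, tazemetostat inhibits the histone methyltransferase EZH2, 4OI is a cell-permeable ester of itaconate, and senicapoc blocks the potassium channel KCa3.1. Mixed cortical cultures of this kind hold neurons, astrocytes and microglia with smaller numbers of other cells.

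Expression is given as the deposited CPM, and changes as log2 fold change on the log2(CPM + 0.5) scale, with the standard error (SE) and the Benjamini-Hochberg false discovery rate (FDR) of limma over all 15587 genes tested. A gene was called when its FDR was under 0.05. Depth was 17.5 to 26.8 M reads on genes per library, and 0.5 CPM stood for 8.58 to 13.2 reads. Libraries of a group correlated at 0.961 to 0.996 on the log2 scale across genes, with replicate 2 of Tat-Cocaine-4OI and replicate 2 of Tat-Tazemetostat farthest from their partners. The labels do not say whether the 3 libraries of a group came from separate preparations, so the p-values measure the spread between these libraries, which may be technical. Markers of neurons, astrocytes and myeloid cells were present throughout, and 0 of the genes on the marker lists that the table holds were at 0 in all 24 libraries. Of the neuron markers, Eno2 alone was too low to be tested.

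With cocaine, genes that neurons switch on with activity were among the largest falls, and the called falls were larger than the called rises. Of the 15587 genes tested 78 were called (0.5%), 62 of them lower with cocaine (0.398%) and 16 higher (0.103%). The called falls ran from −1.41 to −0.13 with a median of −0.60, and 41 of them were under −0.5. The called rises ran from 0.17 to 0.56 with a median of 0.25, and 2 of them were over 0.5. At an unadjusted p under 0.05 there were 1905 genes (12.2%), of which 783 were higher (5.02%) and 1122 lower (7.2%). The nuclear receptor gene Nr4a1 and the G protein regulator gene Rgs8 had the smallest FDR, and Npas4, Acan, Trdn, Crh and Egr4 the largest falls. In bulk RNA, fewer cells of a type and less RNA per cell cannot be told apart. The summed CPM of 20 neuron markers was 1889 to 5341 (median 3912) without cocaine and 1534 to 4462 (median 3050.4) with it, a mean difference over the 4 backgrounds of −0.29 on the log2 scale. The part of this difference in the falls was not tested, and the sums of each background stand beside the genes further on. The number of called genes was 39 without replicate 3 of Tat, 41 without replicate 3 of Tat-Tazemetostat, 43 without replicate 3 of Tat-Amlexanox or replicate 1 of Tat-Cocaine-Amlexanox, 45 without replicate 1 of Tat-Cocaine-Tazemetostat, and 230 without replicate 2 of Tat-Tazemetostat. It was 185 when the background with no compound was left out, 46 without Amlexanox, 8 without Tazemetostat and 2 without 4OI, and of 32 called genes chosen for naming 1, Nr4a1, passed without 4OI. In a fit to all 48 libraries it was 73, of which 49 were among the 78, with 6 higher and 67 lower. With each of the 12 same-numbered pairs of libraries as a block it was 247, with 38 higher and 209 lower, although only 9 of these pairs deviated together.

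Among immediate-early genes, 5 of the 25 tested fell and 1 rose, beside 0.398% of all genes lower and 0.103% higher. The list's median was −0.10 beside −0.00 over all genes. Those that fell were Npas4, Egr4, Nr4a1, Nr4a3 and Dusp5, and the one that rose was Jun. Nr4a1 encodes an orphan nuclear receptor induced by activity and growth factors. Nr4a1 was at 22.7, 14.4 and 17.1 CPM in the 3 Tat libraries and 11.1, 12.9 and 12.0 in Tat-Cocaine, 15, 17.6 and 23.3 in Tat-Amlexanox and 8.49, 10.2 and 11 in Tat-Cocaine-Amlexanox. It was at 17.1, 16.3 and 19 CPM in Tat-Tazemetostat and 8.55, 7.24 and 7.61 in Tat-Cocaine-Tazemetostat, 21.2, 13.4 and 17 in Tat-4OI and 8.56, 5.01 and 7.14 in Tat-Cocaine-4OI. All 12 cocaine libraries lay below the lowest of the 12 cocaine-free libraries, across backgrounds as well as within them (log2 fold change −0.95, SE 0.0994, FDR 0.000105). The cocaine arm was thus at 0.519 of the cocaine-free arm on the log scale, with a 95% interval of the log2 fold change of −1.15 to −0.74.

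Npas4, a transcription factor gene that neurons induce on calcium entry, had the largest fall (log2 fold change −1.41, SE 0.218, FDR 0.00508). Its values were 8.72, 3.31 and 4.49 CPM in Tat and 2.34, 2.09 and 8.09 in Tat-Cocaine, where the libraries overlapped. With Tazemetostat they were 2.12, 1.23 and 4.21 without cocaine and 0.483, 0.255 and 0.564 with it, and with 4OI 5.404, 2.69 and 2.58 and 0.374, 0.175 and 0.248. With Amlexanox they were 3.67, 4.67 and 7.24 and 1.35, 1.80 and 2.51, so that the libraries were apart in the 3 compound backgrounds. Egr4, which encodes a zinc finger transcription factor, stood at 1.56 to 6.90 CPM (median 4.33) over the 12 cocaine-free libraries and at 0.641 to 3.95 CPM (median 1.64) over the 12 with cocaine (log2 fold change −1.19, SE 0.184, FDR 0.00508). Its libraries were apart in the same 3 backgrounds and overlapped between Tat (6.89, 1.56 and 4.30) and Tat-Cocaine (1.92, 1.60 and 3.95). Nr4a3, of the same receptor family as Nr4a1, went from 8.13 to 20.4 CPM (median 14.3) to 3.15 to 14 CPM (median 7.52) (log2 fold change −0.87, SE 0.142, FDR 0.00819). For Dusp5, a phosphatase gene that limits ERK signalling, the corresponding levels were 2.89 to 6.34 CPM (median 5.09) and 2.40 to 4.31 CPM (median 3.27) (log2 fold change −0.51, SE 0.0894, FDR 0.0116).

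Jun, the gene of an AP-1 subunit, moved the other way. It was at 151, 197 and 194 CPM in Tat and 245, 237 and 201 in Tat-Cocaine, 147, 155 and 145 in Tat-Amlexanox and 167, 181 and 167 in Tat-Cocaine-Amlexanox. Further values were 186, 197 and 186 in Tat-Tazemetostat and 211, 212 and 204 in Tat-Cocaine-Tazemetostat, 184, 204 and 197 in Tat-4OI and 244, 240.0 and 235 in Tat-Cocaine-4OI. The libraries did not overlap in any of the 4 backgrounds (log2 fold change 0.24, SE 0.0428, FDR 0.0116). The best known members of the list did not pass the threshold. Fos was at a mean of 35.6 CPM without cocaine and 29.2 with it (log2 fold change −0.29, SE 0.0842, FDR 0.145), Arc at 8.20 and 4.69 (log2 fold change −0.84, SE 0.208, FDR 0.0796), and Fosb at 3.61 and 2.44 (log2 fold change −0.72, SE 0.187, FDR 0.0915). Junb was at 0.01 (FDR 0.982) and Egr1 at −0.02 (FDR 0.960). Fos, Arc, Fosb, Junb and Egr1 are named here after their values were seen.

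**Figure D1:**
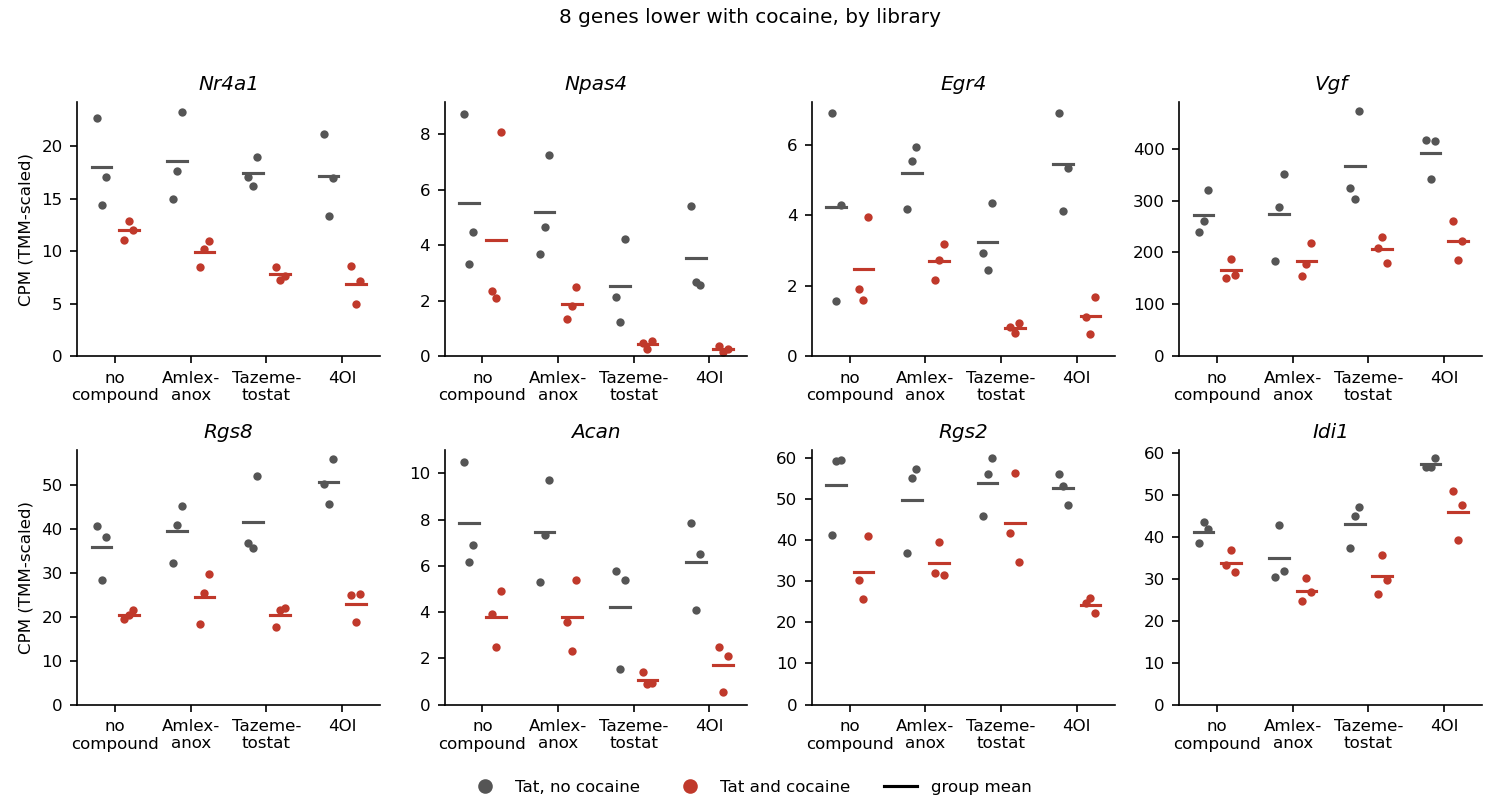
Expression (CPM, linear axis from 0) of 8 genes called lower with cocaine in each of the 24 libraries, by background, with grey points for Tat without cocaine, red points for Tat with cocaine and a bar at each group mean. Nr4a1, Rgs8 and Idi1 are apart in all 4 backgrounds, whereas Npas4 and Egr4 overlap in the background with no compound.

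Of the 21 late activity-regulated genes tested 4 fell and 0 rose, beside 0.398% of all genes lower and 0.103% higher. The list's median was −0.40. By background this median was 0.21 with no compound, −0.16 with Amlexanox, −0.74 with Tazemetostat and −0.65 with 4OI. Its direction was thus not shared by all backgrounds. The 4 genes that fell were Crh, Gpr3, Vgf and Rgs2. Vgf, which encodes a secreted neuropeptide precursor, was at 239, 259.8 and 319 CPM in Tat and 150.3, 188 and 157 in Tat-Cocaine, and at 183, 288 and 352 in Tat-Amlexanox and 155, 177 and 218 in Tat-Cocaine-Amlexanox. It was at 324, 303 and 473 in Tat-Tazemetostat and 209, 230.0 and 179.7 in Tat-Cocaine-Tazemetostat, and at 417, 342 and 415 in Tat-4OI and 261, 185 and 223 in Tat-Cocaine-4OI. The libraries of Vgf were apart in the 3 backgrounds other than Amlexanox, where the highest with cocaine exceeded the lowest without (log2 fold change −0.72, SE 0.106, FDR 0.00349). Its change was nearly even over the backgrounds, at −0.72 with no compound, −0.54 with Amlexanox, −0.81 with Tazemetostat and −0.82 with 4OI. In a fit to all 48 libraries the FDR of Vgf was 0.0915.

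Crh encodes corticotropin-releasing hormone. It went from 0.811 to 4.31 CPM (median 2.27) to 0.175 to 2.59 CPM (median 0.391), and 10 of the 12 cocaine libraries lay below the lowest cocaine-free one (log2 fold change −1.22, SE 0.1997, FDR 0.00819). The exception was the Amlexanox background, with 1.17, 1.13 and 2.22 CPM without cocaine and 1.39, 0.735 and 2.59 with it, a log2 fold change of −0.01 beside −1.05, −1.72 and −2.11 in the other backgrounds. Gpr3, a receptor gene whose product keeps adenylyl cyclase active, went from 0.963 to 5.24 CPM (median 2.86) to 0.175 to 1.85 CPM (median 1.15) (log2 fold change −1.03, SE 0.203, FDR 0.0239). Rgs2, a G protein regulator gene, went from 36.8 to 59.9 CPM (median 55.6) to 22.3 to 56.4 CPM (median 31.7) (log2 fold change −0.66, SE 0.101, FDR 0.00508), and 8 of the 12 cocaine libraries were below the lowest cocaine-free one. Bdnf, the gene of brain-derived neurotrophic factor, was at a mean of 32 CPM without cocaine and 18.3 with it, but its libraries varied too widely for a call (log2 fold change −1.09, SE 0.301, FDR 0.118). The neuropeptide genes Sst (−0.11, FDR 0.854), Penk (−0.05, FDR 0.958) and Tac1 (0.01, FDR 0.993) were not called either. Bdnf, Sst, Penk and Tac1 are named after their values were seen. The call of Gpr3 was lost without replicate 3 of Tat, of Tat-Amlexanox or of Tat-Tazemetostat or replicate 1 of Tat-Cocaine-Amlexanox, with FDR values up to 0.0576.

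Promoter letters of 4 of these genes are shown because many activity-regulated promoters carry the cyclic AMP response element, whose short form is TGACG on one strand and CGTCA on the other, and whose full palindrome is TGACGTCA. The windows are the 250 bases before the annotated gene start, from RefSeq on build GRCr8, 5′ to 3′ on the strand of the gene, with each TGACG or CGTCA in capitals. They are Vgf at chr12:25277021-25277270 (minus strand), Nr4a1 at chr7:134259888-134260137 (plus strand), Egr4 at chr4:119607818-119608067 (minus strand) and Npas4 at chr1:211716103-211716352 (minus strand).
Vgf: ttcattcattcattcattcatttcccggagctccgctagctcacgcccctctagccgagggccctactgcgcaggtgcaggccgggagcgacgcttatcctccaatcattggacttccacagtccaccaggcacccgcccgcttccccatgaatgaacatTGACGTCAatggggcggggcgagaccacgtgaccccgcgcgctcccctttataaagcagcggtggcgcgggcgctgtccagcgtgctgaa
Nr4a1: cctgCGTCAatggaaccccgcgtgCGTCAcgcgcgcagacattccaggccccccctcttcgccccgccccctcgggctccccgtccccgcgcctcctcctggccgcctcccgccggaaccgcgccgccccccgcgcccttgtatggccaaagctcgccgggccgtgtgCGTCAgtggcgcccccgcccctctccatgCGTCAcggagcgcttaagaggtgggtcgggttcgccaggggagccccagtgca
Egr4: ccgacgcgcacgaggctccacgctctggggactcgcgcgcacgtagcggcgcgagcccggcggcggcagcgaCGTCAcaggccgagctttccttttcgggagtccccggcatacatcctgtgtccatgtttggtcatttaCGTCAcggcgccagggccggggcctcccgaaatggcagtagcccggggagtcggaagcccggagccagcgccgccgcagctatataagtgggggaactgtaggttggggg
Npas4: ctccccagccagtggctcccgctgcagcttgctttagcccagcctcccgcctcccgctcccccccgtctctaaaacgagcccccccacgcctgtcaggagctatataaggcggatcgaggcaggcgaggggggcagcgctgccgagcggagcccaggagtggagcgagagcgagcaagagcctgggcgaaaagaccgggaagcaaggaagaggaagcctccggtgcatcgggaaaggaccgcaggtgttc

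The Vgf window holds the full palindrome, Nr4a1 holds 4 of the short motifs, Egr4 holds 2 and Npas4 holds 0, which says only that these letters are not in its window. Of the 9 genes of both activity lists that fell, 7 were matched in the RefSeq table, and 6 of the 7 (85.7%) held the short motif. Among the members of these lists that were not called it was 13 of 28 matched (46.4%), and among all genes tested 2968 of 11089 (26.8%). Over all 62 lower genes the share was 11 of 41 matched (26.8%), and over the 16 higher genes 3 of 11 (27.3%), both close to that of all genes tested. Over all 33469 windows of the table the share was 18.2%. The full palindrome was in 1 of the 41 lower genes (2.44%), which was Vgf, in 5 of the 28 activity genes that were not called (17.9%) and in 308 of the 11089 (2.78%). A match is a description of the letters and not a bound site.

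Several of the largest falls were genes outside these lists. Rgs8, which is named after its values were seen, encodes a regulator of G protein signalling and was at 40.8, 28.5 and 38.3 CPM in Tat and 19.4, 20.3 and 21.6 in Tat-Cocaine, and at 32.3, 40.9 and 45.2 in Tat-Amlexanox and 18.5, 25.4 and 29.7 in Tat-Cocaine-Amlexanox. It was at 36.9, 35.8 and 52.1 in Tat-Tazemetostat and 17.7, 21.6 and 22.1 in Tat-Cocaine-Tazemetostat, and at 50.2, 45.8 and 56.0 in Tat-4OI and 24.9, 18.7 and 25.3 in Tat-Cocaine-4OI. The libraries were apart in each background, and 11 of the 12 cocaine libraries lay below the lowest cocaine-free one (log2 fold change −0.90, SE 0.0924, FDR 0.000105). Dusp4, a phosphatase gene that acts on MAP kinases, went from 16.5 to 71.2 CPM (median 38.6) to 6.27 to 38.4 CPM (median 20.1) (log2 fold change −1.17, SE 0.207, FDR 0.0130).

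Acan encodes aggrecan and Hapln1 a link protein that ties aggrecan to hyaluronan in the matrix around neurons. Acan was at 10.49, 6.16 and 6.90 CPM in Tat and 3.92, 2.50 and 4.91 in Tat-Cocaine, and at 5.29, 7.34 and 9.72 in Tat-Amlexanox and 3.57, 2.33 and 5.399 in Tat-Cocaine-Amlexanox, the single pair that overlapped. It was at 5.75, 1.55 and 5.38 in Tat-Tazemetostat and 1.40, 0.866 and 0.940 in Tat-Cocaine-Tazemetostat, and at 7.87, 4.09 and 6.52 in Tat-4OI and 2.48, 0.525 and 2.08 in Tat-Cocaine-4OI (log2 fold change −1.26, SE 0.217, FDR 0.0116). Hapln1 went from 46.9 to 184 CPM (median 124) to 17.5 to 112 CPM (median 43.6) (log2 fold change −1.19, SE 0.244, FDR 0.0295), and this call was lost on leaving out any one of 12 of the 24 libraries, with FDR values up to 0.0729. The hyaluronan synthase gene Has3, named after its values were seen, was at 1.47 to 3.13 CPM (median 2.16) without cocaine and 0.966 to 2.93 CPM (median 1.13) with it (log2 fold change −0.49, SE 0.0941, FDR 0.0211), and showed 0.04 in the Amlexanox background.

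Trdn, the gene of triadin, a protein of calcium release sites, went from 1.497 to 7.15 CPM (median 5.20) to 0.561 to 3.70 CPM (median 1.60), with the libraries apart in all 4 backgrounds and changes of −1.26, −1.12, −1.38 and −1.23 (log2 fold change −1.25, SE 0.220, FDR 0.0125). Rln1, a relaxin gene, was at 0.556 to 2.03 CPM (median 1.18) without cocaine, and 11 of the 12 cocaine libraries were below the lowest of these, at 0.0426 to 0.714 CPM (median 0.339) (log2 fold change −1.05, SE 0.136, FDR 0.00102). Pnoc, which encodes the precursor of the opioid-like peptide nociceptin, went from 24.8 to 79.4 CPM (median 50.2) to 15.7 to 43.4 CPM (median 20.7) (log2 fold change −1.03, SE 0.179, FDR 0.0116). Ngfr, the gene of the p75 neurotrophin receptor, went from 1.502 to 5.54 CPM (median 2.23) to 0.306 to 2.55 CPM (median 0.853), with 10 of the 12 cocaine libraries below the lowest without (log2 fold change −1.03, SE 0.190, FDR 0.0150). For Ankrd34c the levels were 0.856 to 2.83 CPM (median 1.65) and 0.0583 to 1.48 CPM (median 0.552) (log2 fold change −0.96, SE 0.174, FDR 0.0144). The order of the 12 largest falls by size carries little, since the intervals of neighbours overlap widely, as with −1.87 to −0.96 for Npas4 and −1.33 to −0.60 for Ankrd34c.

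Cholesterol synthesis genes showed small differences of mostly one sign. Of the 20 tested 3 fell and 0 rose, beside 0.398% of all genes lower and 0.103% higher. The median was −0.08, and 17 of 20 were below 0, beside 51.1% of all genes. Idi1, an isomerase of the pathway, was at 38.5, 43.5 and 41.9 CPM in Tat and 33.3, 36.8 and 31.6 in Tat-Cocaine, and at 30.5, 43 and 31.9 in Tat-Amlexanox and 24.6, 30.2 and 26.8 in Tat-Cocaine-Amlexanox. It was at 37.4, 44.9 and 47.3 in Tat-Tazemetostat and 26.5, 35.7 and 29.9 in Tat-Cocaine-Tazemetostat, and at 56.7, 56.7 and 59.0 in Tat-4OI and 50.9, 39.2 and 47.8 in Tat-Cocaine-4OI. The libraries of Idi1 were apart in all 4 backgrounds (log2 fold change −0.36, SE 0.0667, FDR 0.0150). Stard4, which encodes a sterol carrier, went from 13.3 to 24.7 CPM (median 18.4) to 11.2 to 19.4 CPM (median 13) (log2 fold change −0.40, SE 0.0808, FDR 0.0270), and lost its call on leaving out any one of 6 libraries, with FDR values up to 0.0672. Hmgcs1 (−0.21, FDR 0.186) and Mvd (−0.27, FDR 0.165), named after their values were seen, did not pass.

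The rises were small, and the 2 largest were in genes of low level. Krt26, a keratin gene, was at 1.77, 1.56 and 1.61 CPM in Tat and 2.77, 4.26 and 4.19 in Tat-Cocaine, and at 0.963, 1.24 and 1.26 in Tat-4OI and 2.81, 3.15 and 2.97 in Tat-Cocaine-4OI, apart in both. It was at 2.06, 1.90 and 1.96 in Tat-Amlexanox and 2.57, 1.67 and 2.01 in Tat-Cocaine-Amlexanox, and at 2.27, 2.09 and 1.98 in Tat-Tazemetostat and 2.32, 2.75 and 2.25 in Tat-Cocaine-Tazemetostat, where the libraries overlapped (log2 fold change 0.56, SE 0.0731, FDR 0.00102). The guanylate cyclase gene Gucy2g was at 0 to 0.167 CPM (median 0.0500) without cocaine, close to no reads, and at 0.724, 1.19 and 0.684 CPM in Tat-Cocaine, with 0, 0.245 and 0.0760 in Tat-Cocaine-Amlexanox (log2 fold change 0.56, SE 0.108, FDR 0.0212). Its fold change depends on the 0.5 CPM added before the logarithm, and its FDR was 0.0527 or less on leaving out any library, with the call lost for replicate 3 of Tat and replicate 3 of Tat-Amlexanox. Dmpk, the kinase gene of myotonic dystrophy, was at 42.9, 55.6 and 58.5 CPM in Tat-4OI and 88.7, 95.4 and 97.1 in Tat-Cocaine-4OI, the widest gap among its backgrounds, and overlapped between Tat (61.8, 66.1 and 44.5) and Tat-Cocaine (54.6, 69.4 and 78.2; log2 fold change 0.47, SE 0.0790, FDR 0.00987).

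Eif2ak3 encodes PERK, a kinase that senses unfolded protein in the endoplasmic reticulum. It was at 28.9, 32.7 and 32.1 CPM in Tat and 45, 46.6 and 39.7 in Tat-Cocaine, and over all backgrounds at 28.9 to 37.2 CPM (median 33) and 32.2 to 46.6 CPM (median 38.2) (log2 fold change 0.22, SE 0.0352, FDR 0.00608). Bax, which encodes a pro-apoptotic protein of the mitochondrial membrane, was at 44.1, 40.3 and 36.9 CPM in Tat-Tazemetostat and 47.5, 47.4 and 48.4 in Tat-Cocaine-Tazemetostat, and at 35.5, 36.4 and 38.1 in Tat-4OI and 42.5, 42.9 and 42.7 in Tat-Cocaine-4OI, but at 40.001, 40.2 and 36.9 in Tat and 39.98, 40.2 and 44.7 in Tat-Cocaine (log2 fold change 0.19, SE 0.0355, FDR 0.0150). Bax was the 1 member called of the 15 p53 and apoptosis genes tested, beside 0.103% of all genes called higher. The median of this list was 0.11, with 12 of 15 above 0. Of all genes 51.1% were below 0. Snn, the gene of stannin, went from 208 to 330.4 CPM (median 268) to 277 to 349 CPM (median 309) (log2 fold change 0.25, SE 0.0489, FDR 0.0239). Hpgd, whose product inactivates prostaglandins, went from 0.584 to 1.34 CPM (median 1.07) to 0.641 to 2.90 CPM (median 1.48) (log2 fold change 0.40, SE 0.0821, FDR 0.0289), and Cst6, a cystatin gene, from 0.898 to 1.93 CPM (median 1.45) to 1.52 to 2.70 CPM (median 1.95) (log2 fold change 0.40, SE 0.0821, FDR 0.0295).

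The remaining named rises were Homer3, a postsynaptic scaffold gene (log2 fold change 0.22, SE 0.0476, FDR 0.0399), the folliculin gene Flcn (log2 fold change 0.21, SE 0.0462, FDR 0.0456) and Snapc2, a subunit gene of the snRNA activating complex (log2 fold change 0.17, SE 0.0353, FDR 0.0295). For these and some rises above the call was lost on leaving out 1 library in 17 of 24 cases for Homer3, 19 for Flcn, 14 for Snapc2, 11 for Cst6, 10 for Hpgd and 4 for Snn, with FDR values up to 0.0962. In the fit to all 48 libraries 9 of the 11 rises chosen by size were not called, Krt26 (FDR 0.0926), Dmpk (FDR 0.0659) and Eif2ak3 (FDR 0.0618) among them, and the 2 that were called were Jun and Bax.

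**Figure D2:**
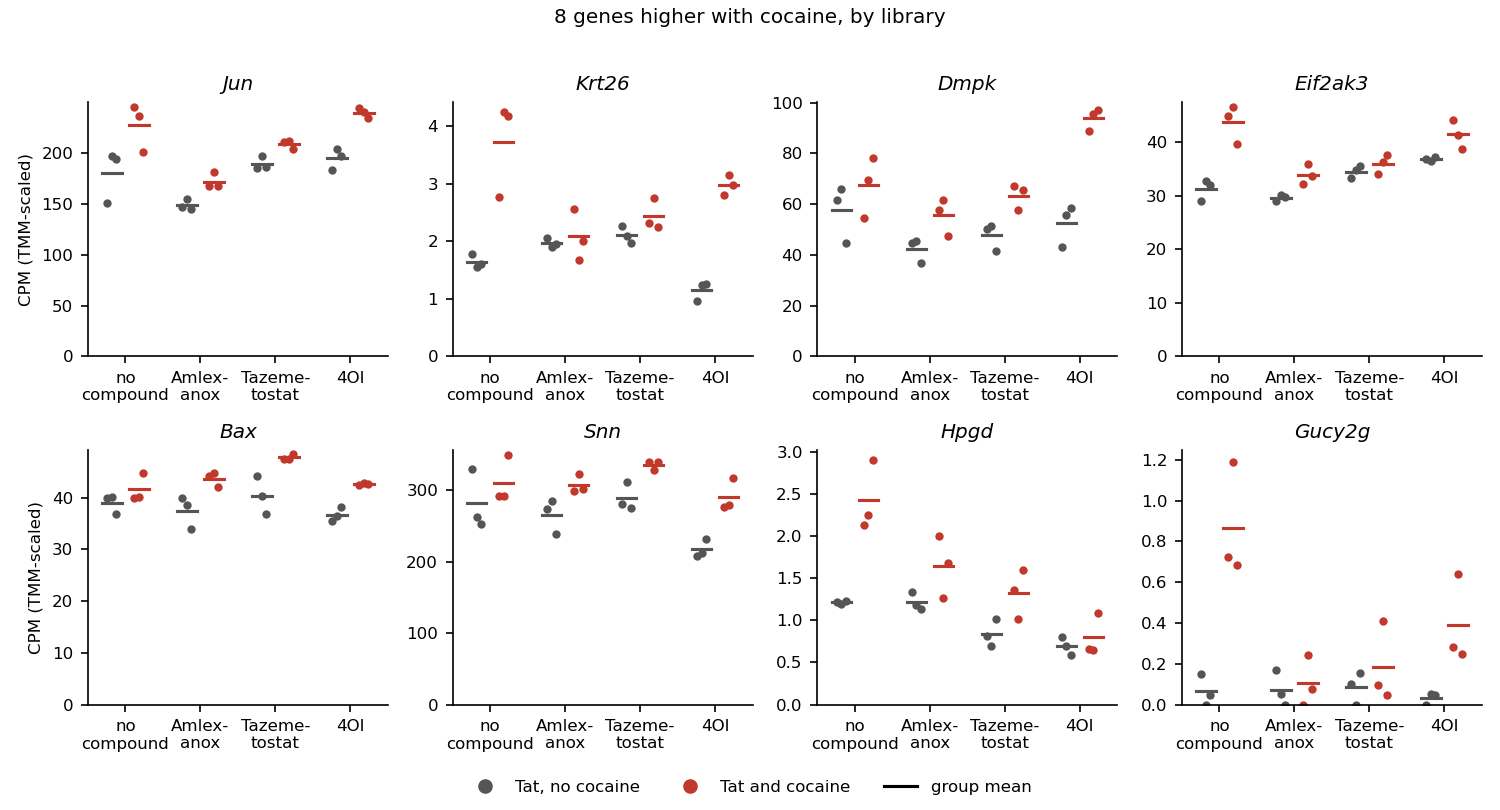
Expression (CPM, linear axis from 0) of 8 genes called higher with cocaine in each of the 24 libraries, by background, with grey points for Tat without cocaine, red points for Tat with cocaine and a bar at each group mean. Jun is apart in all 4 backgrounds, while the gap of Krt26 lies in the backgrounds with no compound and with 4OI.

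The effect was also read within each background, where 3 libraries stood against 3 and the median SE was 0.154 in place of 0.0769 for the average. With no compound 2 genes were called (0.0128%), both higher, Krt26 and Eif2ak3. Limma called 0 genes in the Amlexanox background (0%), where 300 genes had an unadjusted p under 0.05, and 0 in the Tazemetostat background (0%), where 1335 had. Without replicate 2 of Tat-Tazemetostat the last count was 24. In the 4OI background 12 genes were called (0.077%), 3 higher and 9 lower. Among the lower were Npas4 (−2.35), Nr4a3 (−1.75), Nr4a1 (−1.26), Rgs8 (−1.13) and Rgs2 (−1.10). This count rested on single libraries, and was 0 without replicate 1 of Tat-4OI, replicate 2 of Tat-Cocaine-4OI or replicate 3 of Tat-Cocaine-4OI, and 3 without replicate 2 or replicate 3 of Tat-4OI. With no compound the count was 0 without replicate 2 or 3 of Tat or replicate 2 of Tat-Cocaine, 1 without replicate 1 of Tat or replicate 1 of Tat-Cocaine, and 10 without replicate 3 of Tat-Cocaine. Libraries with the same replicate number deviated together in the 3 compound backgrounds, and with each pair as a block, chosen after seeing the data, limma called 0 genes with Amlexanox, 16 with Tazemetostat and 33 with 4OI.

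The 62 lower genes had a median change of −0.49 with no compound, −0.42 with Amlexanox, −0.82 with Tazemetostat and −0.96 with 4OI. The sign was negative for 59, 58, 62 and 62 of the 62, a description only, since the genes were called on the same libraries. Of the 78 called genes 69 had the same sign in all 4 backgrounds, beside 2400 of all genes tested (15.4%), and for 47 the libraries did not overlap in at least 3 backgrounds, beside 134 of all genes (0.86%). The 7 genes apart in all 4 included Nr4a1, Rgs8, Trdn, Jun and Idi1. Limma called 0 of 15587 genes (0%) in the test of a difference between the 4 backgrounds, with a smallest FDR of 0.741, and 730 had an unadjusted p under 0.05 (4.68%). Of the 78 genes 20 were among these, Krt26, Nr4a3 and Crh included. A difference in size between backgrounds, such as that of Npas4 between no compound (−0.49) and 4OI (−2.35), was thus not past the threshold (limma FDR 0.741).

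**Figure D3:**
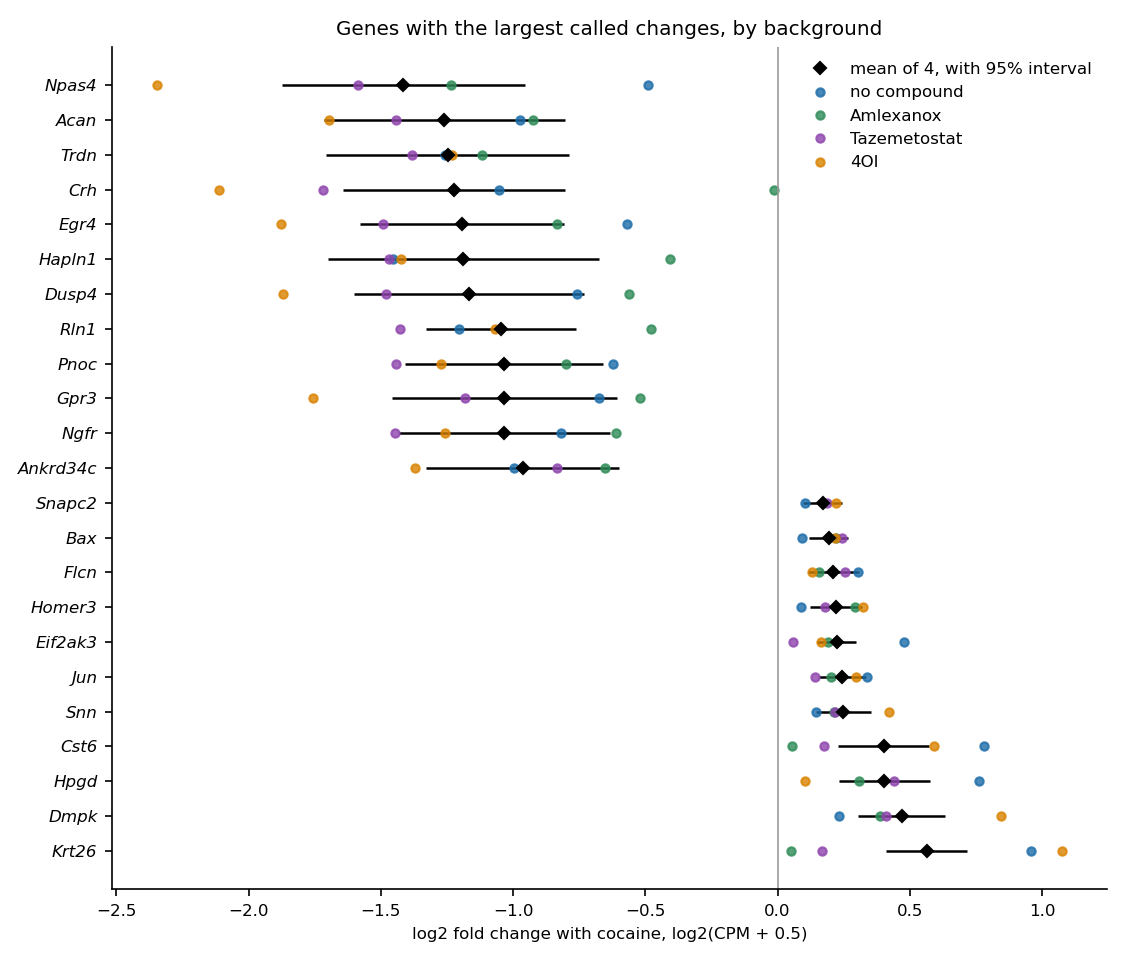
Log2 fold change with cocaine, on the log2(CPM + 0.5) scale, of the 12 largest called falls and the 11 called rises that met the naming rule, with a coloured point per background and a black diamond with its 95% interval for the mean of 4. For most falls the points of Tazemetostat and 4OI lie farther from 0 than those of no compound and Amlexanox.

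The falls were larger in the Tazemetostat and 4OI backgrounds, in which the neuron markers were lower as well. The summed CPM of 20 neuron markers was 3900.4, 2236 and 3923 in the 3 Tat libraries and 4123, 3944 and 3208 in Tat-Cocaine, a log2 difference of 0.20. It was 2811, 3188 and 4080.0 in Tat-Amlexanox and 2603, 2893 and 3673 in Tat-Cocaine-Amlexanox, a difference of −0.13. In Tat-Tazemetostat it was 3185, 1889 and 4461 and in Tat-Cocaine-Tazemetostat 1999, 1534 and 2285, a difference of −0.65. In Tat-4OI it was 5341, 4506 and 5023 and in Tat-Cocaine-4OI 4462, 2205 and 3746, a difference of −0.57. The sum was therefore lower with cocaine in 3 backgrounds and higher in the one with no compound, and the libraries overlapped in 3 of the 4 backgrounds and were apart with 4OI. Between libraries of the same replicate number it was lower with cocaine in 9 of 9 pairs with Amlexanox, Tazemetostat and 4OI, and in 1 of 3 pairs with no compound. The labels state no pairing, and that same-numbered libraries deviated together in the compound backgrounds was read from these same libraries. These pair counts are therefore a description only. Of the 19 neuron markers tested 0 were called by limma. An unadjusted p under 0.05 was reached by 8, all lower, beside 7.2% of all genes. All 19 were below 0, beside 51.1% of all genes, with a median of −0.33. The inhibitory neuron markers Gad2 (log2 fold change −0.71, SE 0.185, FDR 0.0915) and Gad1 (log2 fold change −0.57, SE 0.152, FDR 0.102) and the tubulin gene Tubb3 (log2 fold change −0.57, SE 0.147, FDR 0.0882) were nearest to the threshold. Gad1 passed it under 5 of 20 alternatives, both replicate blocks included, with FDR values down to 0.00497. Map2 was at −0.11 (FDR 0.734) and Stmn2 at −0.06 (FDR 0.857), and the FDR of Syt1 was 0.439. Gad2 and Tubb3 are named after their values were seen.

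In the background with no compound Nr4a1 was at −0.55, Rgs8 at −0.78, Vgf at −0.72, Trdn at −1.26 and Rgs2 at −0.72. The libraries of each of these were apart, while those of Npas4 (−0.49) and Egr4 (−0.57) overlapped. All were called on an average that holds these same libraries, so their values here are a description only. Within this background limma called 2 genes, both higher, and 0 lower. In a repeat without the Tazemetostat and 4OI backgrounds, chosen after seeing the data, limma called 0 genes, with 849 at an unadjusted p under 0.05. In a repeat without replicate 2 of Tat-Cocaine-4OI and replicate 2 of Tat-Tazemetostat, also chosen after seeing the data, 157 genes were called, 73 of the 78 among them, and the median of the lower genes was −0.63.

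Receptor genes of neurons leaned down with few calls. Of 23 glutamate receptor genes tested 1 fell, Grm2, which encodes a presynaptic receptor that dampens release, from 8.93 to 33.9 CPM (median 18.5) to 3.21 to 18.6 CPM (median 10.2) (log2 fold change −0.96, SE 0.210, FDR 0.0456). Among all genes 0.398% were called lower. The median of the glutamate receptor genes was −0.26, with 19 of 23 below 0, beside 51.1% of all genes. Leaving out 1 library ended the call of Grm2 in 17 of 24 cases. Of 13 GABA-A receptor genes limma called 0, and 3 had an unadjusted p under 0.05, all lower, beside 7.2% of all genes. All 13 were below 0 with a median of −0.27. The medians of both families were above 0 with no compound, at 0.15 and 0.31, and below 0 in the other 3 backgrounds, so that their mean direction was not shared by all backgrounds.

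Of the listed targets of cocaine that could be tested none passed the threshold, and the reuptake transporter genes Slc6a3, Slc6a2 and Slc6a4 were too low to be tested. Of 40 genes on the list of transporters, receptors and enzymes of monoamines 27 were high enough to test. Limma called 0, and 3 had an unadjusted p under 0.05, beside 12.2% of all genes. These 3, all lower, were the adrenergic receptor genes Adra1d (log2 fold change −0.73, SE 0.187, FDR 0.0870) and Adra2a (−0.29, FDR 0.267) and the dopamine receptor gene Drd1 (−0.42, FDR 0.229). Under the alternatives Adra1d passed in 5 of 20, with FDR values down to 0.00715, and Drd1 in 2 of 20, down to 0.0222. Of the genes of cocaine breakdown 2 could be tested, the esterases Ces1d (−0.19, FDR 0.704) and Bche (−0.13, FDR 0.703), and neither was called. The 12 voltage-gated sodium channel genes had a median of −0.05, and limma called 0 of them, while 0 had an unadjusted p under 0.05.

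Inflammatory genes, which Tat is known to raise in such cultures, gave no call in either direction when cocaine was added. Limma called 0 of the 17 cytokine, 21 chemokine, 18 complement, 18 antigen presentation, 19 NF-κB, 21 interferon and 11 acute-phase genes tested. Of these only 1, a cytokine gene, had an unadjusted p under 0.05, beside 12.2% of all genes. The list medians differed in sign between backgrounds, although limma called 0 of 15587 genes in the test of such a difference. The median of the acute-phase genes was −1.01 with no compound, 0.11 with Amlexanox, 0.30 with Tazemetostat and 0.66 with 4OI, and that of the chemokines −0.45, 0.12, 0.27 and 0.36. Acod1, which encodes the enzyme that makes itaconate, had a mean of 26 CPM without cocaine and 22.5 with it, with a 95% interval of the log2 fold change of −1.13 to 1.02. The myeloid marker sum ranged from 1337 to 8641 CPM without cocaine and from 880 to 8741 with it, and its log2 difference was −0.64, 0.00, 0.42 and −0.23 by background.

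Among the other lists, limma called 1 of 17 cyclic nucleotide genes, Gucy2g, which was higher, beside 0.103% of all genes called higher. It called 0 of the Nrf2, ATF4, endoplasmic reticulum chaperone, heat shock, mitochondrial genome, cell cycle and collagen genes. Also 0 were called of the metallothionein and S100, circadian, disease-associated microglia and phagocyte oxidase genes. The medians of these 11 lists lay between −0.04 and 0.12, and an unadjusted p under 0.05 was reached by 3 ATF4, 3 circadian, 3 disease-associated microglia, 2 Nrf2, 2 metallothionein or S100, 1 chaperone and 1 collagen or matrix gene. Among all genes the share was 12.2%. All 22 glycolysis and hypoxia genes tested were below 0, beside 51.1% of all genes. Their median was −0.16, with similar medians of −0.22, −0.13, −0.10 and −0.19 by background. Limma called 0 of them, and 10 had an unadjusted p under 0.05, all lower, beside 7.2% of all genes. Ldha (−0.25, FDR 0.203) and Pgk1 (−0.21, FDR 0.184), enzymes of glycolysis, were among these 10. Pgk1 is named after its values were seen. Aldoa (FDR 0.339), Pkm (FDR 0.587) and Eno1 (FDR 0.919), of the same list and named by rule, were farther from the threshold. The markers of oligodendrocytes had a median of −0.47, those of astrocytes −0.00 and those of myeloid cells −0.10, each with 0 calls by limma and 0 at an unadjusted p under 0.05. By background the oligodendrocyte median was 0.19 with no compound, −0.42 with Amlexanox, −1.25 with Tazemetostat and −0.56 with 4OI. The oligodendrocyte marker sum ranged from 253 to 2616 CPM without cocaine and from 236 to 2370 with it. The medians of the average were −0.11 for homeostatic microglia, −0.09 for border macrophages, −0.28 for oligodendrocyte precursors, −0.18 for endothelial cells, 0.10 for mural cells and fibroblasts and 0.12 for ependymal cells. These lists again had 0 calls by limma, and 1 mural or fibroblast gene had an unadjusted p under 0.05.

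**Figure D4:**
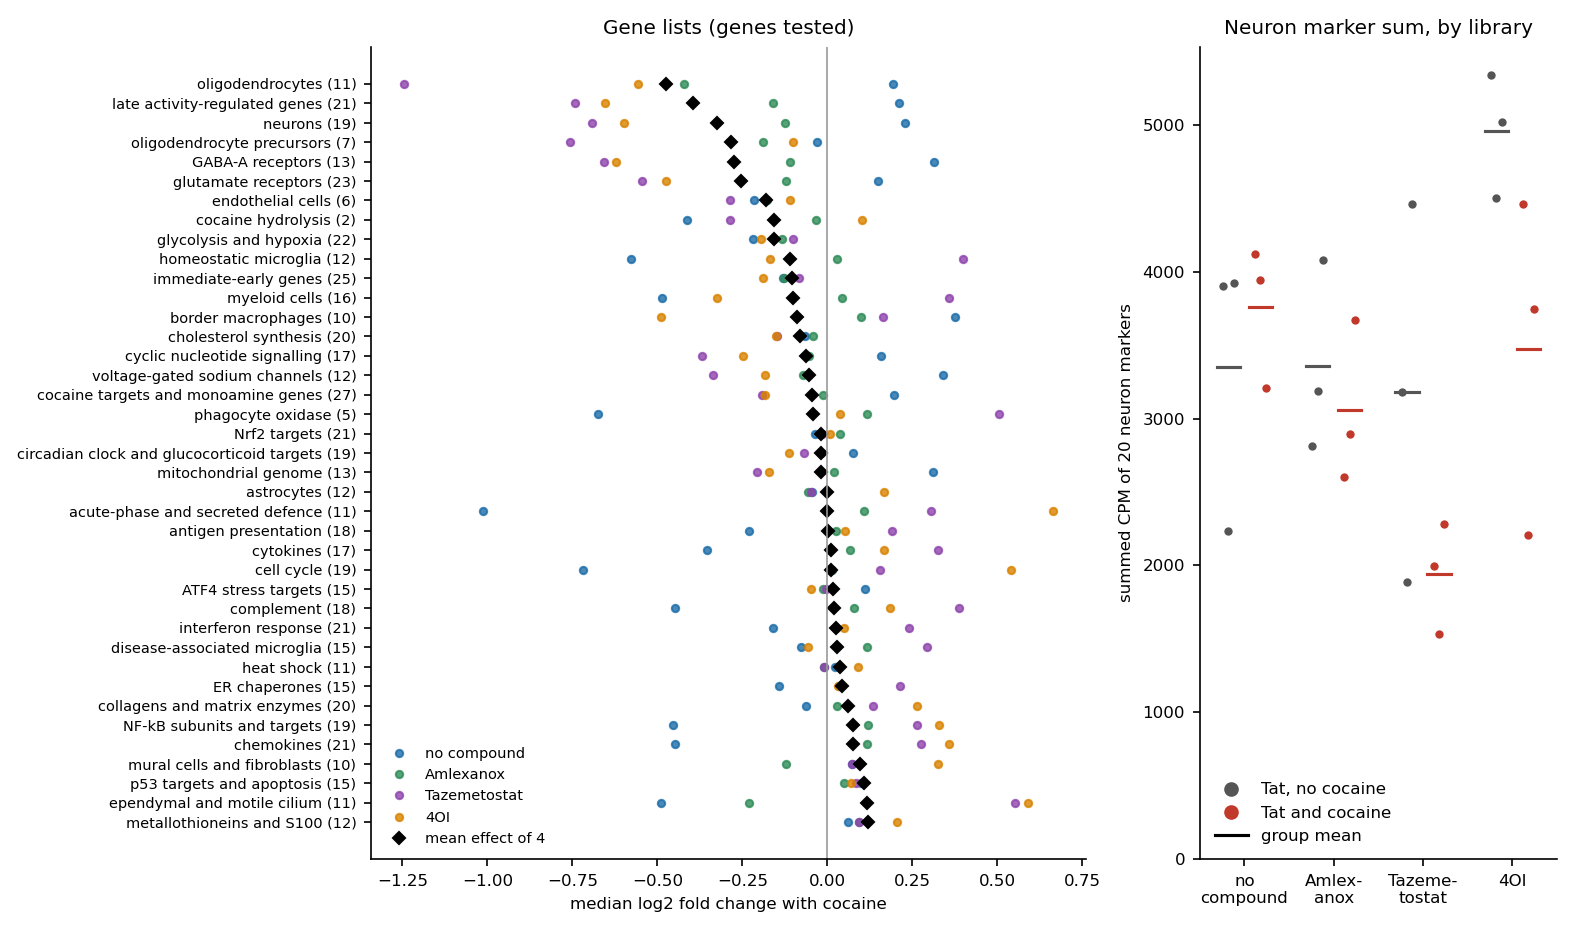
Left, median log2 fold change with cocaine of each of 39 gene lists (number of genes tested in brackets), with a coloured point per background and a black diamond for the mean effect of 4. Right, summed CPM of 20 neuron markers in each library, which is lower with cocaine in the backgrounds with Amlexanox, Tazemetostat and 4OI and higher in the one with no compound.

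The called genes were then looked up in 12 libraries that had no part in the average. These were Tat-Cocaine-Senicapoc against Tat-Senicapoc (1 µM) and Cocaine against Control, the latter without Tat, both from a fit to all 48 libraries and 15890 genes. In the senicapoc pair 62 of the 62 lower genes were again negative, beside 43.2% of all genes, with a median of −0.90, and 15 of the 16 higher genes were positive, with a median of 0.33. In Cocaine against Control 58 of the 62 were negative, beside 48.8% of all genes, with a median of −0.83, and 14 of the 16 positive, with a median of 0.23. The medians over all genes were 0.04 and 0.01. With an unadjusted p under 0.05 and the same sign there were 64 of the 78 in the senicapoc pair, beside 13% of all genes, and 52 in Cocaine against Control, beside 9.69%. The neuron marker sum moved with cocaine in these libraries too. It was 5871, 4947 and 4856 CPM in Tat-Senicapoc and 3321, 2876 and 4118 in Tat-Cocaine-Senicapoc, a log2 difference of −0.61 with the libraries apart. In Control it was 5953, 4477 and 3801 and in Cocaine 5364, 2165 and 1887, a log2 difference of −0.74 in which replicate 1 of Cocaine lay within the Control range. The oligodendrocyte marker sum was 1496, 1016 and 28288 CPM in Cocaine and 1659, 745 and 303 in Control, so that replicate 3 of Cocaine stood apart. The part of these sums in the values of the called genes was not tested.

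Nr4a1 was at 24.6, 34.4 and 33.9 CPM in Tat-Senicapoc and 8.78, 6.14 and 10.3 in Tat-Cocaine-Senicapoc (log2 fold change −1.83, FDR 0.00151), and at 29.6, 19.95 and 15.3 in Control and 17.3, 7.36 and 11.7 in Cocaine (−0.84, FDR 0.184). Npas4 was at 11.5, 24.4 and 16.2 CPM in Tat-Senicapoc and 1.60, 1.04 and 2.56 in Tat-Cocaine-Senicapoc (−2.99, FDR 0.0225), and Acan at 18.9, 30.2 and 19.9 and 4.20, 2.07 and 3.80 (−2.62, FDR 0.00227). For both genes the cocaine-free partner was higher than Tat. The means in Tat-Senicapoc and Tat were 17.3 and 5.51 CPM for Npas4 and 23 and 7.85 for Acan. They were 2.39 and 2.43 for Ngfr and 1.29 and 1.24 for Rln1. The part of such starting levels in the larger falls of this pair was not tested. Vgf was at 427, 341 and 144 in Control and 251, 47.8 and 36 in Cocaine (−1.86, FDR 0.0463), and Rgs8 at 52.9, 43.1 and 34.1 and 35.6, 10.7 and 5.11 (−1.72, FDR 0.0206). Replicate 1 of Cocaine lay within the Control range for Nr4a1, Vgf and Rgs8, while replicates 2 and 3 were below it. Ngfr went against the average in Cocaine, at 0.802, 0.595 and 8.97 CPM beside 0.997, 1.27 and 0.681 in Control, where the high value of replicate 3 made the log2 fold change 0.70.

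Of the 78 genes 10 were also called in the senicapoc pair, which is 12.8% of the 78 and 34.5% of the 29 called there (0.183% of 15890). In Cocaine against Control it was also 10, which is 12.8% of the 78 and 31.3% of the 32 called there (0.201%). Limma called 0 genes (0%) where the average was tested against the senicapoc pair, with 549 at an unadjusted p under 0.05 and a smallest FDR of 0.885. It also called 0 (0%) against Cocaine alone, with 1058 at an unadjusted p under 0.05 and a smallest FDR of 0.630. The last count rested on 1 library, since without replicate 1 of Cocaine 549 genes were called.

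**Figure D5:**
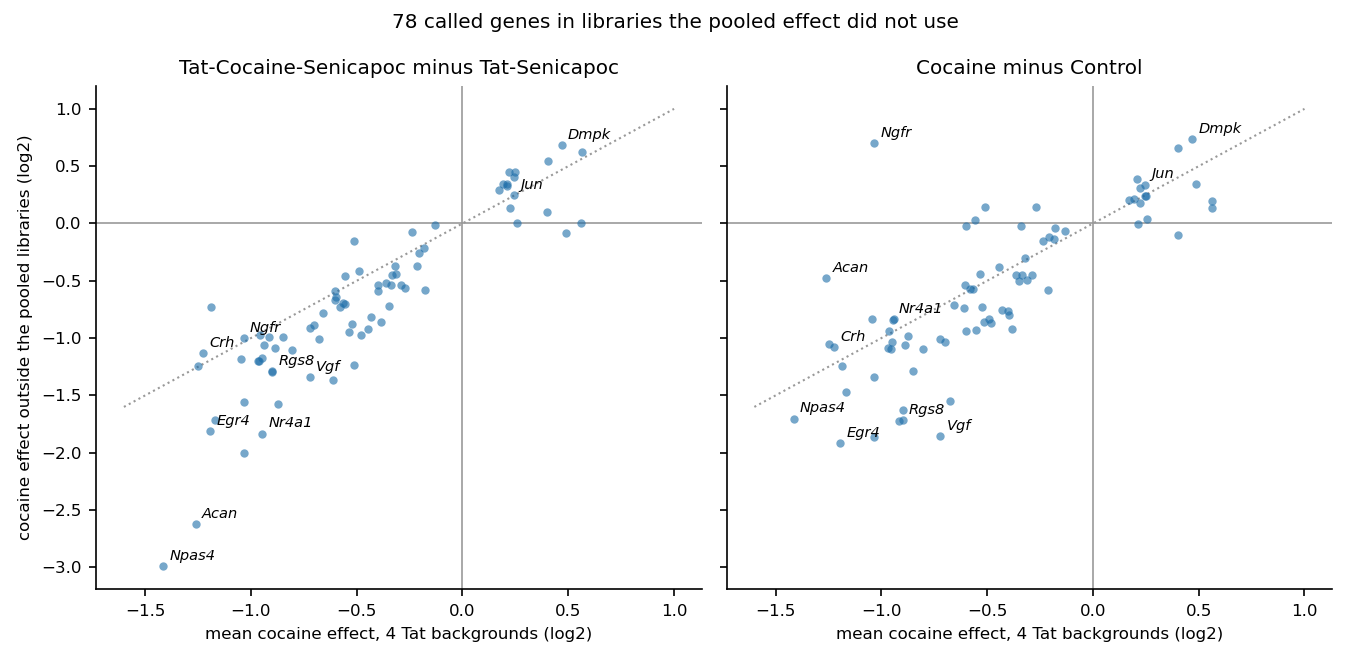
Each of the 78 called genes by its mean cocaine effect in the 4 Tat backgrounds (x axis, log2 fold change) and its effect in libraries outside them (y axis, log2 fold change), for the senicapoc pair on the left and Cocaine against Control on the right, with a dotted line where both are equal. Of the 62 lower genes 52 lie below the line on the left and 39 on the right, and Ngfr stands above 0 on the right.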

How the data were processed

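In all, 24 RNA-seq libraries in 8 groups were analysed, with 24 others of the series used for comparison. The authors aligned reads to the rat genome with STAR (build Rnor_6.0 by the methods, while the labels list mRatBN7.2 and hg38, which was not settled), counted those mapped uniquely with featureCounts of Subread, and deposited a signal per gene and library, CPM after TMM normalization in edgeR. Of the values above 0, 85.1 to 87.3% were whole reads within 0.02 read, so count models were not used. The log2 fold changes, likelihood ratio scores, p-values and FDR values the authors deposited are their own comparisons and were not used. The deposited table lists 30211 genes, of which 6162 are at 0 in all libraries, and 0 columns of per-sample values were left unused.

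Genes reaching 0.5 CPM in 3 or more of the 24 libraries entered the test, by limma 3.58.1 (lmFit, eBayes with a trend) in R 4.3.3 on log2(CPM + 0.5), with 1 mean per group, no covariates, 16 residual degrees of freedom and Benjamini-Hochberg FDR under 0.05. The average was the mean of 4 differences. The code was tested on simulated data. Groups and replicate numbers came from the labels, which name no batch. Deviations of same-numbered libraries from their group means correlated over 0.1 in every pair with Amlexanox, Tazemetostat and 4OI (0.289 to 0.729), but at −0.784 to −0.148 with no compound. Of the 24 pairs of other numbers 8 also correlated over 0.1, with a median of −0.29 beside 0.52 for the 12 same-numbered pairs. The labels state no pairing, so a pairing in the compound backgrounds is inferred from these values. Genes were named by rule: up to 12 largest rises and falls among called genes with 1 sign in all 4 backgrounds, at least 1 CPM in the higher arm and a gene symbol that is not a clone or locus name; up to 4 genes of each of 39 lists, called ones first and then by level; up to 6 called in a test of a difference, of which there were 0; Acod1, Gucy2g, S100a4, Ptpru and the cocaine targets. S100a4 was at 0.21 (FDR 0.432) and Ptpru at 0.08 (FDR 0.758). Members and lists were chosen with earlier results of these data known. Genes of the lists missing from the table were not analysed here, and some listed genes are not reported here by name. Alternatives are given in the closing section.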

Additional observations from a re-analysis of the deposited data

How the results depend on the processing

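The 78 calls of the average became 80 and 77 with pseudocounts of 0.1 and 1 CPM, 63 without a filter, 68 with a minimum of 2 CPM, 88 with median ratio rescaling, 86 with quantile normalization, 73 in a fit to all 48 libraries (49 of the 78 among them), 85 without a trend and 76 with voom weights. With quantile normalization 31.4% of the calls were higher, in place of 20.5%, and in the fit to all 48 libraries 6 were higher and 67 lower, in place of 16 and 62. The count was 285 with array weights, 43 when a call also needed a log2 fold change of 0.5 or more in size and 1093 with the senicapoc pair added. Leaving out a background gave 185 (no compound), 46 (Amlexanox), 8 (Tazemetostat) and 2 (4OI). Chosen after seeing the data, leaving out both libraries that stand apart gave 157 and leaving out the Tazemetostat and 4OI backgrounds 0. Leaving out 1 library gave 39 to 230 calls for the average, 0 to 10 with no compound, 0 to 0 with Amlexanox, 0 to 24 with Tazemetostat, 0 to 10 with 4OI, 0 to 0 for the difference between backgrounds, 0 to 0 against the senicapoc pair and 0 to 549 against Cocaine alone. Without a filter the counts were 5 with no compound, 1 with Amlexanox, 1 for the difference between backgrounds and 1 against Cocaine alone. With 4OI it was 7 at a pseudocount of 1 CPM and 5 at a minimum of 2 CPM. Causes were not tested.

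Same-numbered libraries deviated together with Amlexanox, Tazemetostat and 4OI and not with no compound, so that over the average 9 of 12 pairs correlated over 0.1. The labels state no pairing. With the number as a replicate block 293 genes were called for the average, 12 with no compound and 32 with 4OI, and the counts of the other tests stayed at 0. With each same-numbered pair as a replicate block the average gave 247, and, chosen after seeing the data, the pair block gave 0 with no compound, 0 with Amlexanox, 16 with Tazemetostat and 33 with 4OI.

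Of the 32 called genes chosen for naming, 21 kept the call whichever library was left out, and 0 changed sign under any alternative. A fit to all 48 libraries lost 11 calls, the size limit of 0.5 took 13, and leaving out a background 7 (no compound), 14 (Amlexanox), 28 (Tazemetostat) and 31 (4OI). Depth limits genes such as Gucy2g and Rln1, where 0.5 CPM stood for 8.58 to 13.2 reads.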
